A study of Homo sapiens with 4 samples.

Results

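The 10 genes described here belong to protein kinase C, Gq and protein kinase A signalling. The set was PRKCA, PRKCD, PRKCE, PRKCI, PRKCZ, GNAQ, GNA11, PRKACB, PRKAR2B and PKIA, and each member was every probe set annotated with its symbol. All 10 members were found, with 12 probe sets, among 18417 genes and 33297 probe sets. PRKCA, GNAQ and PKIA were chosen for their differences in these same arrays, so their values are a description. PRKCA and GNAQ stood out in the comparison of siPSF with siControl, and PKIA in that of untransfected LTAD with LNCaP.

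The cells were LNCaP, a human prostate cancer line that responds to androgen, and LTAD, which was derived from LNCaP by long androgen deprivation. LNCaP cells were kept for 24 h in phenol red-free medium with 2.5% stripped serum, and LTAD cells were grown in such medium with 10% stripped serum. LTAD cells were untransfected, or transfected with a control siRNA (siControl) or an siRNA against PSF (siPSF), the RNA-binding protein encoded by SFPQ. Total RNA of each of the 4 groups was hybridised to 1 whole-transcript array. No group had a replicate, so there is no error, no p-value and no test across samples, and precision is limited by the number of arrays. The sources used here do not give the siRNA sequences, the time after transfection, or whether LTAD is 1 clone or a pool.

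Receptors coupled to Gq act through the alpha subunits Gq (GNAQ) and G11 (GNA11), which activate phospholipase C beta. This enzyme releases IP3, which opens calcium channels, and diacylglycerol, which together with calcium activates conventional PKC (PRKCA) and, without calcium, a second class of isoforms (PRKCD, PRKCE). Atypical PKC (PRKCI, PRKCZ) needs neither and acts in cell polarity. In the cAMP pathway, regulatory subunits (PRKAR2B among them) hold the catalytic subunits of PKA (PRKACB among them) inactive until cAMP binds, and PKI proteins (PKIA) block the free catalytic subunit. In LNCaP cells, phorbol esters that activate PKC are known to cause apoptosis, and a raised cAMP level to cause a neuroendocrine-like change of shape.

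Levels are log2 values after quantile normalization of the 4 arrays, which gives every array the same distribution. This was needed because the deposited columns had medians from 5.98 for siControl to 7.20 for untransfected LTAD. The deposited values move the median of all kept genes by 0.18 for LTAD against LNCaP and by -0.87 for siControl against untransfected LTAD, and differences are given on the normalized scale unless stated. Genes that reached a log2 level of 7.23 (the median over genes and arrays) in 1 array or more were kept, 10117 in all. All 10 members were kept, 7 of them at or above that value in all 4 arrays. PRKCA reached it in 3 arrays, and PRKCE and PKIA only in untransfected LTAD. Levels under 7.23 may be background, and no fold is given against them. Genes at least 2-fold apart between arrays are counted below as a description of those arrays.

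SFPQ, the siRNA target, read 10.83 in LNCaP, 10.82 in untransfected LTAD, 11.23 in siControl and 9.87 in siPSF. The siPSF level was 2.58-fold lower than in siControl and differed by -0.95 from untransfected LTAD, which is under 2-fold. The arrays read RNA and not PSF protein. The luminal prostate genes KLK2, HOXB13, KRT8, KRT18 and EPCAM reached the filter value in all 4 arrays. KLK3, the gene of prostate-specific antigen, did so in 3 and read 12.89 in LNCaP, 11.06 in untransfected LTAD, 7.47 in siControl and 7.11 in siPSF. Of the 3 basal markers read, KRT14 reached the filter value in siPSF (7.36), and of the 6 neuroendocrine markers ENO2 did so in every array. Of 10 stromal, endothelial and immune markers, COL1A1 reached it in every array, VIM in all but untransfected LTAD and ACTA2 in siPSF. The log2 summed level of the luminal list was 14.25 in LNCaP, 13.99 in untransfected LTAD, 13.49 in siControl and 13.55 in siPSF. Those of the stromal, endothelial and immune list were 9.62, 9.62, 10.26 and 10.45 in the same order, those of the neuroendocrine list 9.35, 10.48, 9.95 and 10.68, and those of the basal list 7.57, 7.65, 7.80 and 7.94. ENO2 alone read 9.01, 10.29, 9.67 and 10.52, and the other neuroendocrine markers stayed under the filter value in every array. VIM read 7.84, 7.15, 9.03 and 9.31. The basal sums add levels under the filter value, except KRT14 in siPSF. These sums thus rest largely on single genes or on levels that may be background, and no cell type is read from them. The part of these shifts in summed level in the results below was not tested.

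Upstream sequences are shown for PRKCA, which differed most between siPSF and siControl, and for PRKACB, which separated the transfected from the untransfected arrays. Each is the 250 bases before a RefSeq start site in GRCh38.p14, plus strand, at chr17:66302363-66302612 for PRKCA and chr1:84077829-84078078 for PRKACB, the most upstream of its 5 listed starts. Capitals mark matches to the motifs searched on both strands. The motifs were the AP-1 site TGANTCA, through which phorbol esters act by way of PKC, the CRE TGACGTCA of CREB, its short form TGACG, which also lies inside a full CRE, and the GC box GGGCGG.
PRKCA: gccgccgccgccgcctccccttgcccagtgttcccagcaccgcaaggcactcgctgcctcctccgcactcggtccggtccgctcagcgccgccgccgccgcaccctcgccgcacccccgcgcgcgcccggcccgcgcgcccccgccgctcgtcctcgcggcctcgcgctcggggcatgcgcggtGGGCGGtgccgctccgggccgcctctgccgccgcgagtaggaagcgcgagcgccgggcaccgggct
PRKACB: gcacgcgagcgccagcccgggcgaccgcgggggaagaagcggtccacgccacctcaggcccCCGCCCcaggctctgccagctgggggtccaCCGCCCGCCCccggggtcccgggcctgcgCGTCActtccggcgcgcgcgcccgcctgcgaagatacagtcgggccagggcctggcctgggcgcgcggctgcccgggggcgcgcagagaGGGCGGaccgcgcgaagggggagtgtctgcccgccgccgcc
The PRKCA window held 1 GC box and none of the others. The PRKACB window held 4 GC boxes, some of them overlapping, and 1 short CRE. Over all 35116 RefSeq start windows of the same length, 42.6% held a GC box, 21.2% a short CRE, 6.57% an AP-1 site and 1.65% a full CRE. Among the members, 8 had entries, with 17 start sites, and only a window of PRKCZ held a full CRE. None of the 17 held an AP-1 site in these letters. GNAQ and PKIA had no entry. A match describes letters only.

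**Figure D1:**
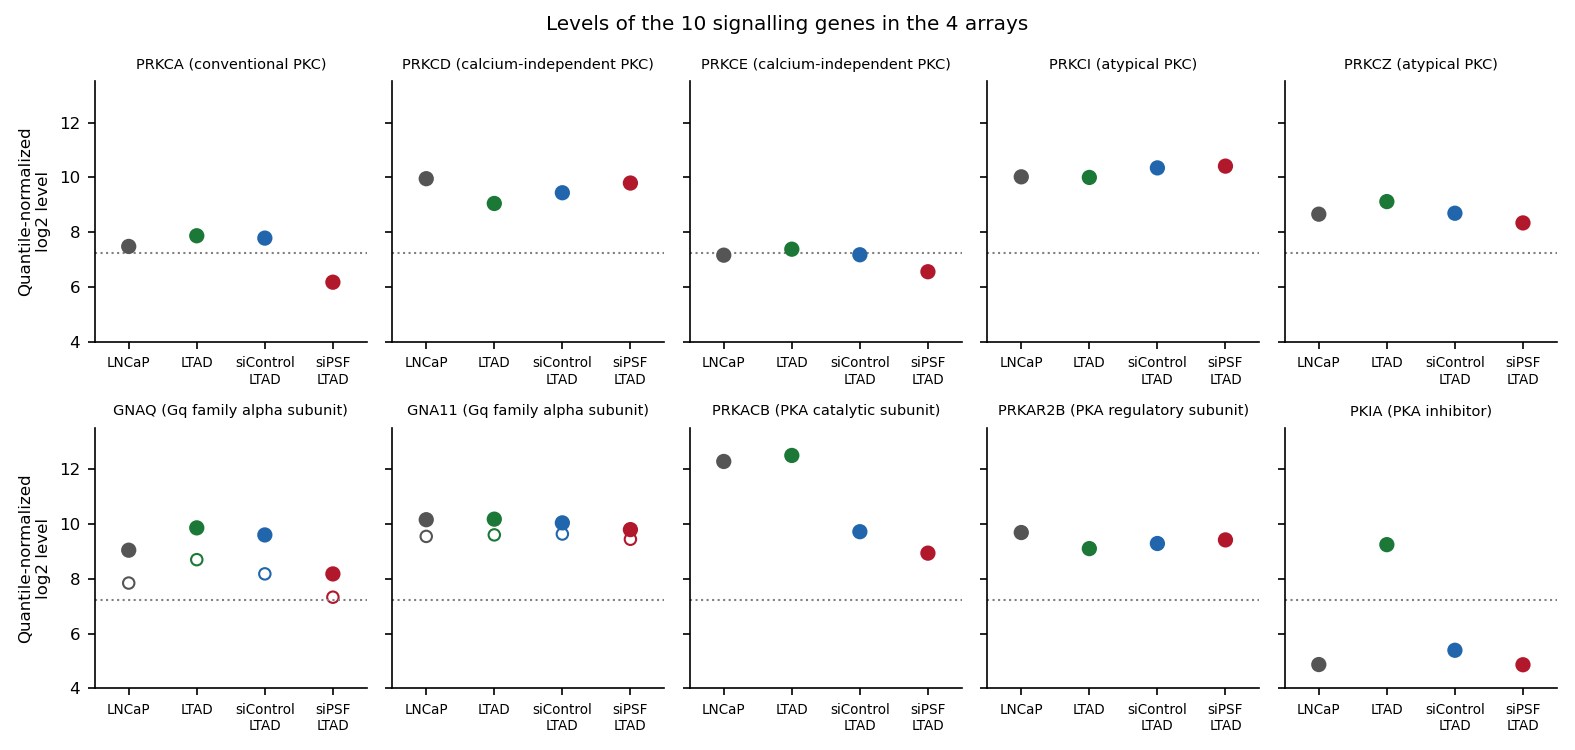
Quantile-normalized log2 level (y axis) of each of the 10 genes in the 4 arrays (x axis), 1 point per array. Filled points are the probe set used for the gene, open points the second probe sets of GNAQ and GNA11, and the dotted line is the filter value of 7.23. PRKCA and GNAQ are lowest in siPSF, PRKACB is lower in both transfected arrays, and PKIA is above the line only in untransfected LTAD.

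The first comparison set siPSF against siControl LTAD and asked how these signalling genes read with the siRNA against PSF. PRKCA and GNAQ were at least 2-fold lower, 2 of the 10 members, and none was 2-fold higher. Of all kept genes, 0.722% were at least 2-fold lower and 0.089% higher. Since PRKCA and GNAQ were picked from this comparison, nothing is read from that count. Of the other 8 members, 5 were below 0 (53.1% of all kept genes were), with a median of -0.30, against -0.02 over all kept genes. The 8 still include PKIA, which was also chosen for its differences in these arrays. All members were listed with earlier results of these data known, so these values too are a description. PKIA and PRKCE, both among those below 0, read under the filter value in siControl and siPSF alike. In bulk RNA, fewer cells expressing a gene and less of its RNA per cell cannot be told apart.

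PRKCA, the conventional calcium- and diacylglycerol-activated PKC alpha, read 7.48 in LNCaP, 7.87 in untransfected LTAD, 7.78 in siControl and 6.18 in siPSF. The first 3 arrays lay within 0.39 of each other, and siPSF alone was under the filter value. Its log2 difference between siPSF and siControl was -1.61, a reading against a level that may be background. With untransfected LTAD as the control the difference was -1.69, and against LNCaP it was -1.31. PRKCA was thus lower in siPSF than in each of the other 3 arrays by more than 1 on the log2 scale.

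PRKCE, the calcium-independent PKC epsilon, read 7.16 in LNCaP, 7.38 in untransfected LTAD, 7.18 in siControl and 6.56 in siPSF. The siPSF array was again the lowest, by -0.62 against siControl, but 3 of the 4 levels lay under the filter value. PRKCD, the other member of that class (PKC delta, known for its part in apoptosis), did not share this order. It read 9.95 in LNCaP, 9.05 in untransfected LTAD, 9.44 in siControl and 9.79 in siPSF, so that siPSF was 1.28-fold above siControl and closest to LNCaP.

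As with PRKCD, neither atypical isoform was 2-fold apart between siPSF and siControl. PRKCZ (PKC zeta) read 8.66 in LNCaP, 9.12 in untransfected LTAD, 8.69 in siControl and 8.34 in siPSF, a 1.28-fold lower level than in siControl. PRKCI (PKC iota) read 10.02, 10.00, 10.35 and 10.41 in the same order. Its 2 transfected arrays differed by 0.06 (-0.0041 with each array centred on its median, so the sign turns). The 2 transfected arrays of PRKCI lay above both untransfected ones on the normalized scale, but below them on the deposited one.

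GNAQ, the alpha subunit of Gq, read 9.04 in LNCaP, 9.86 in untransfected LTAD, 9.60 in siControl and 8.17 in siPSF. It was 2.68-fold lower in siPSF than in siControl (log2 difference -1.42) and 3.21-fold lower than in untransfected LTAD. The 2 probe sets of GNAQ gave the same order of arrays but not the same size. The dimmer one read 7.84, 8.70, 8.18 and 7.33, with a siPSF difference of -0.85 that does not reach 2-fold. Against LNCaP the siPSF array was 1.82-fold lower.

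GNA11, the close relative of GNAQ that activates the same phospholipases, varied far less. Its brighter probe set read 10.15 in LNCaP, 10.17 in untransfected LTAD, 10.04 in siControl and 9.79 in siPSF, and its second 9.54, 9.60, 9.63 and 9.44. The siPSF array was lowest in both, 1.19-fold below siControl in the first. GNA14 and GNA15, the other alpha subunits of the Gq family, were under the filter value in all 4 arrays. GNA12 and GNA13, of the separate G12 family, differed by -0.03 and 0.06 between siPSF and siControl.

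**Figure D2:**
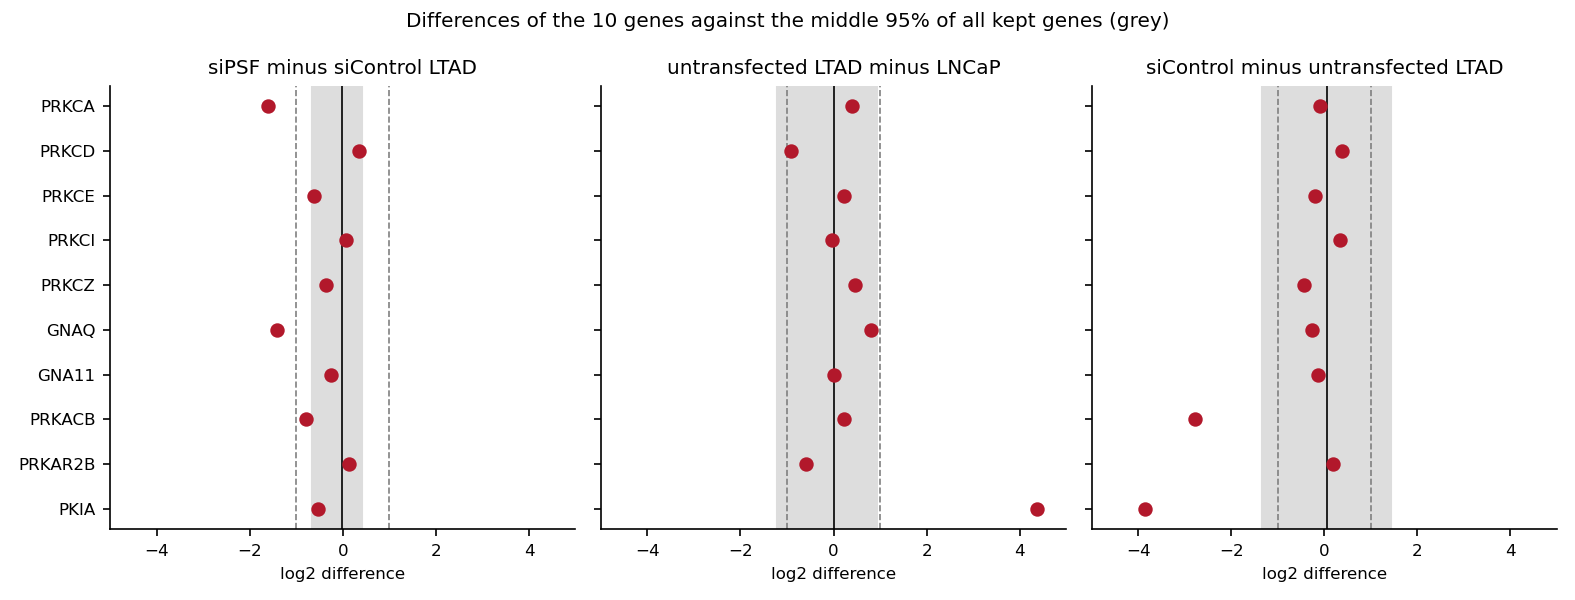
Log2 difference (x axis) of each of the 10 genes (y axis) in the 3 comparisons, between single arrays. Grey bands hold the middle 95% of all kept genes, black lines their medians and dashed lines mark 2-fold. PRKCA (-1.61), GNAQ (-1.42) and PRKACB (-0.78) lie below the band with siPSF, and PRKACB (-2.78) and PKIA (-3.85) in the comparison of the 2 LTAD arrays without PSF siRNA.

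Of the PKA genes, PRKACB, the catalytic subunit C-beta, read 12.28 in LNCaP, 12.50 in untransfected LTAD, 9.72 in siControl and 8.93 in siPSF. The 2 untransfected arrays were close to each other, and both transfected arrays were well below them. The siControl array was 6.88-fold below untransfected LTAD and 5.91-fold below LNCaP, and siPSF a further 1.72-fold below siControl (log2 difference -0.78). Both transfected arrays were at least 2-fold below both untransfected ones for 1 member, PRKACB, and for 1.42% of all kept genes. Transfection, and any difference in handling between the transfected and untransfected arrays, cannot be told apart.

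The other catalytic subunits did not follow PRKACB. PRKACA, the C-alpha subunit, read 9.84, 9.86, 9.85 and 9.75 in LNCaP, untransfected LTAD, siControl and siPSF, and PRKX, a related kinase, 8.80, 8.60, 8.65 and 8.42. PRKAR2B, the regulatory subunit RII-beta, read 9.69 in LNCaP, 9.10 in untransfected LTAD, 9.28 in siControl and 9.42 in siPSF. LNCaP was highest, with untransfected LTAD at -0.59 against it, and siPSF was 1.10-fold above siControl. For the regulatory subunits PRKAR1A and PRKAR2A the largest difference in the 3 comparisons was -0.15, while PRKAR1B differed by -0.42 with siPSF.

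PKIA, the inhibitor PKI-alpha, read 4.87 in LNCaP, 9.24 in untransfected LTAD, 5.39 in siControl and 4.86 in siPSF. It was high in 1 array and under the filter value in the other 3, the siPSF difference of -0.53 included. PKIB, the beta inhibitor, was above the filter value only in LNCaP, at 8.20, and read 5.98, 5.64 and 5.20 in untransfected LTAD, siControl and siPSF. PKIG, the gamma inhibitor, reached the value in all 4 arrays, from 7.34 in LNCaP to 7.84 in siControl. PKIA and PKIB thus each reached that value in a single array, a different one for each.

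**Figure D3:**
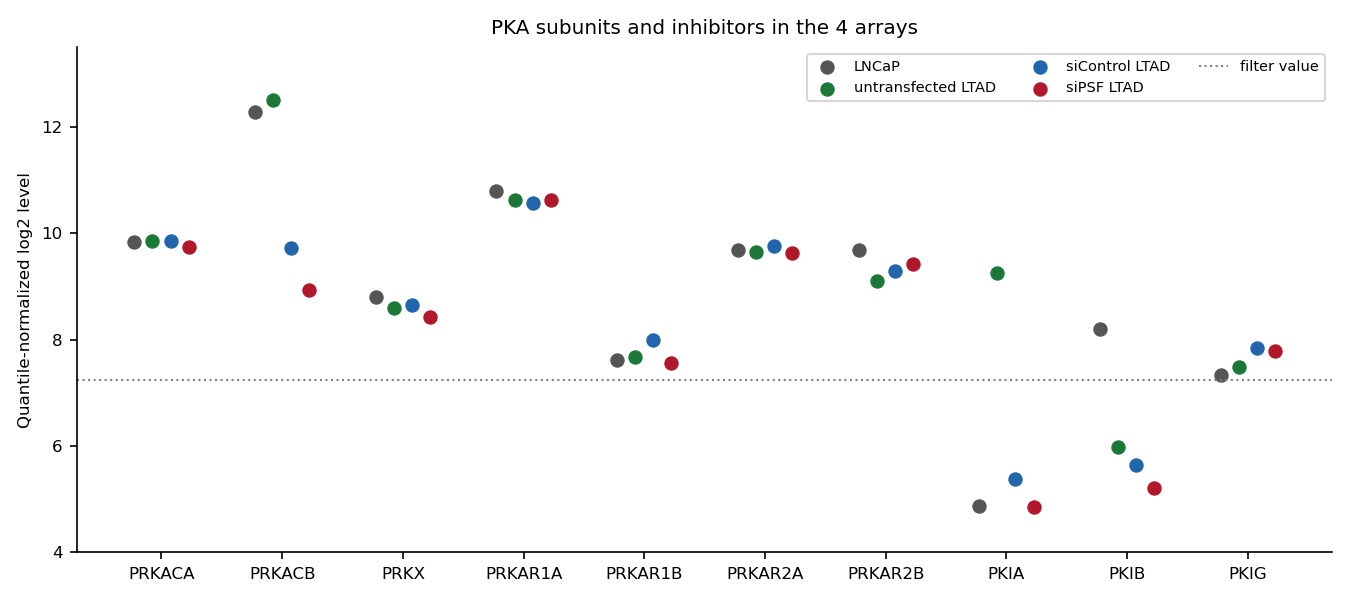
Quantile-normalized log2 level (y axis) of PKA catalytic subunits, regulatory subunits and inhibitors (x axis) in the 4 arrays, 1 point per array, with the filter value of 7.23 as a dotted line. PRKACB reads 12.50 in untransfected LTAD and 9.72 in siControl while PRKACA lies between 9.75 and 9.86, and PKIA and PKIB are above the line in 1 array each, untransfected LTAD and LNCaP.

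The second comparison set untransfected LTAD against LNCaP and concerned what separates the androgen-deprived cells from the parental line, though line and serum cannot be told apart. PKIA read higher by 4.38 on the log2 scale, against an LNCaP level of 4.87 that may be background, and no other member was 2-fold apart. Of all kept genes, 2.20% were at least 2-fold higher and 3.43% lower. PKIA was chosen from this comparison and kept only through the LTAD array. GNAQ was 1.76-fold higher in LTAD, PRKCZ 1.37-fold and PRKCA 1.31-fold, while PRKCD was 1.87-fold lower and PRKAR2B differed by -0.59. PRKCI and GNA11 differed by -0.02 and 0.02, with signs that turned on the deposited scale for the first and with median centring for the second. The median over the 10 members was 0.22, against 0.00 over all kept genes.

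The siControl array, which is also LTAD, gave other values against the same LNCaP array. PKIA differed by 0.52, with both levels under the filter value, and PRKACB by -2.56. GNAQ was 1.47-fold and PRKCA 1.23-fold above LNCaP in siControl too. PRKCD and PRKAR2B were again below LNCaP, by 1.43-fold and 1.32-fold. The LNCaP array is common to both sets of differences.

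The third comparison, siControl against untransfected LTAD, showed how far 2 arrays of the line lie apart without PSF siRNA. The untransfected LTAD array also served in the second comparison, with the opposite sign. A departure of that array alone would therefore enter both. PKIA and PRKACB were at least 2-fold lower in siControl, with differences of -3.85 and -2.78. PKIA was kept only through untransfected LTAD, and its siControl level of 5.39 may be background, while PRKACB was above the filter value in both arrays. Of all kept genes, 4.36% were at least 2-fold lower and 6.34% higher, more than in either other comparison. The other 8 members lay between -0.42 (PRKCZ) and 0.39 (PRKCD). Of these 8, the signs of PRKCA, GNAQ and GNA11 turned with median centring and those of PRKCD, PRKCI and PRKAR2B on the deposited values, so no direction is given for these 6.

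Across the 4 arrays, siPSF was the lowest for 7 members, PRKCA, PRKCE, PRKCZ, GNAQ, GNA11, PRKACB and PKIA, on the normalized, the median-centred and the deposited values. Over all kept genes siPSF was lowest for 22.7% on the normalized values. On the deposited scale both transfected arrays had lower medians than both untransfected ones. That alone places them low there, so the deposited order adds little. Leaving out PRKCA, GNAQ and PKIA, which were chosen for their differences, siPSF was lowest for 4 of 7, among them PRKCE with levels around and under 7.23. Untransfected LTAD was the highest array for the same 7 members in which siPSF was lowest. All members were listed with earlier results of these data known, so nothing is read from these counts. With 1 array a group there is no spread to show which neighbouring levels differ. The narrowest gaps were 0.01 between LNCaP and siPSF for PKIA, 0.02 between LNCaP and siControl for PRKCE, 0.02 between untransfected LTAD and LNCaP for GNA11, and 0.02 between LNCaP and untransfected LTAD for PRKCI.

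The members also differed in gene length. PRKCE spanned 537 kb in GRCh38.p14, PRKCA 508 kb and GNAQ 316 kb, longer than 97.3% or more of the kept genes, whose median span was 28.8 kb. PRKACB spanned 160 kb, PRKCZ 137 kb, PRKAR2B 117 kb, PKIA 88.9 kb, PRKCI 83.6 kb, PRKCD 31.5 kb and GNA11 29.6 kb. The 3 longest read -0.62, -1.61 and -1.42 with siPSF against siControl. All 290 kept genes over 300 kb had a median of -0.43, with 252 below 0 and 13.8% at least 2-fold lower. Between 100 and 300 kb the median was -0.06 with 1.54% at least 2-fold lower, and between 50 and 100 kb it was -0.02 with 0.305%. Up to 50 kb the median was 0.00, with 0.0889% lower.

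Among the members, PRKCE lay nearer to the median of its length class than PRKCA and GNAQ, which were chosen for their siPSF differences. Between 100 and 300 kb, PRKACB read -0.78, PRKCZ -0.35 and PRKAR2B 0.13. Between 50 and 100 kb, PKIA read -0.53, with both levels under the filter value, and PRKCI 0.06. Up to 50 kb, PRKCD read 0.35 and GNA11 -0.25. Of the 9 other kept pathway genes over 300 kb, 8 were below 0, with a median of -0.46. The part of length in these differences was not tested.

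**Figure D4:**
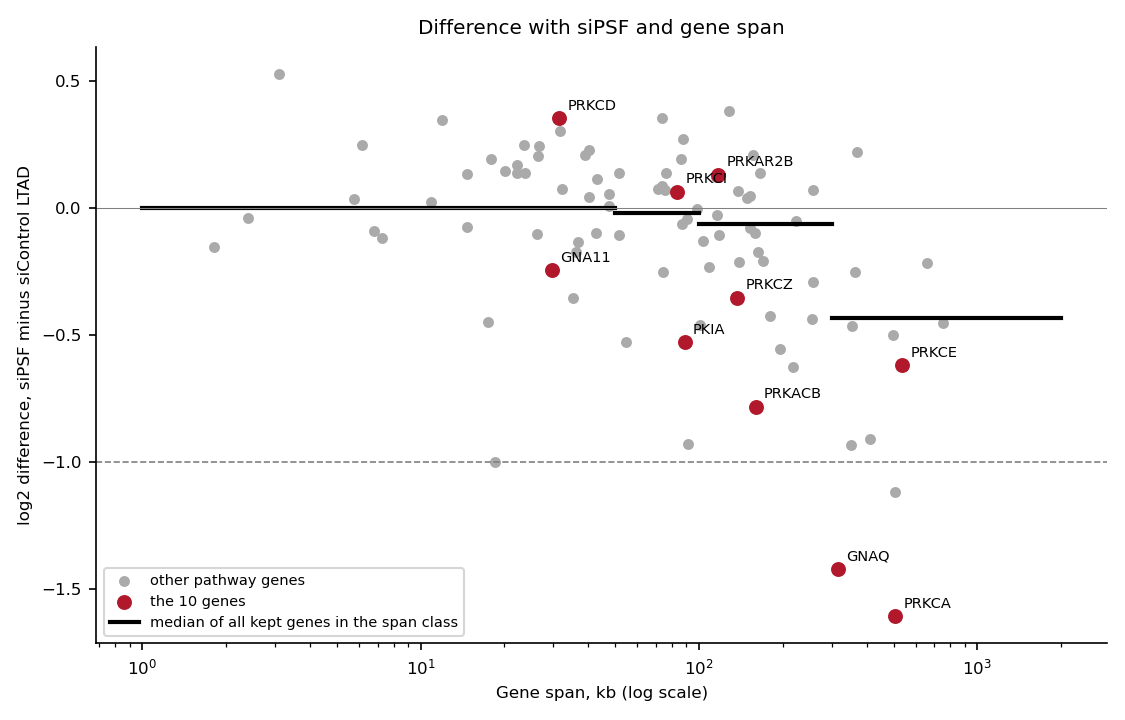
Log2 difference between the siPSF and siControl arrays (y axis) against gene span in kb (x axis, log scale) for the kept genes of the PKC, Gq and cAMP pathways. Red points are the 10 members, grey points other pathway genes, black bars the median of all kept genes in each span class, and the dashed line marks 2-fold lower. PRKCA and GNAQ lie at -1.61 and -1.42, below the median of -0.43 for genes over 300 kb.

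The rest of both pathways was read from lists of 149 other genes, of which 141 were measured and 82 kept. With siPSF against siControl, 2 of the 82 (2.44%) were at least 2-fold lower and none higher, beside 0.722% and 0.089% of all kept genes, with a median of -0.03. They were AKAP6, an anchoring protein for PKA, at -1.12, and ANXA1, the calcium- and lipid-binding annexin A1, just past the threshold at 6.06 against 7.06. Both read under the filter value in siPSF, and ANXA1 in siControl too. AKAP6 was kept only through siControl and ANXA1 only through untransfected LTAD, so nothing is read from the share. AKAP6 spans 508 kb and ANXA1 18.5 kb.

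Upstream of the kinases, the phospholipase C beta genes PLCB4 and PLCB1, effectors of Gq, differed by -0.91 and -0.45 with siPSF, and PLCB3 by 0.19. PLCB1 and, among the receptors, ITPR2 were under 7.23 in both arrays, and PLCB3 in siControl. PLCB4 read 9.58 in LNCaP, 8.78 in untransfected LTAD, 9.19 in siControl and 8.28 in siPSF. Of the IP3 receptors, ITPR1 and ITPR2 differed by -0.46 and -0.50 and ITPR3 by 0.07. PRKD1, a kinase activated by PKC, was 1.91-fold lower, at 10.51 against 11.45, and read 11.92 in LNCaP and 11.71 in untransfected LTAD. GNAI1, an inhibitory alpha subunit that lowers cAMP, was 1.90-fold lower, at 7.65 against 8.58, and read 9.84 in LNCaP and 9.51 in untransfected LTAD. It was thus lower in siControl than in untransfected LTAD already. The inhibitory subunits GNAI2 and GNAI3 differed by 0.08 and -0.10 with siPSF. PLCB3, PLCB4, PRKD1, GNAI1, GNAI2, GNAI3 and ITPR3 fell outside the naming rule and were chosen after their values were seen. So were all further list genes given at under 2-fold. PRKCH, another isoform of the PRKCE class, differed by -0.25, while PRKCB and PRKCQ were under the filter value in every array.

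Downstream, no kept gene of the 2 lists on CREB was 2-fold apart with siPSF. CREB1, the factor phosphorylated by PKA, differed by 0.14 and its coactivators CRTC1, CRTC2 and CRTC3 by 0.00, 0.03 and 0.12. In the list of CREB factors and other cAMP effectors, the median over the 8 kept genes was 0.10, against -0.02 over all kept genes. Only 3 of 14 measured genes induced through CREB were kept, DUSP1 at 0.53, PER1 at 0.35 and NR4A1 at -0.13. MARCKS, a PKC substrate at the membrane, differed by 0.25. Most of its list went the other way: of the 10 kept PKC substrates and scaffolds, 6 were below 0, with a median of -0.04.

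Between untransfected LTAD and LNCaP, 6 of the 82 were at least 2-fold higher and 3 lower, 7.32% and 3.66% beside 2.20% and 3.43% of all kept genes. For 6 of these 9 the lower level was under 7.23. ANXA1 and ITPR2 were kept only through untransfected LTAD, and PLCB1 and PKIB only through LNCaP. The lists were chosen with earlier results of these data known, so nothing is read from these shares. ANXA1 differed by 4.64, the cAMP phosphodiesterase PDE10A by 2.22 and the IP3 receptor ITPR2 by 1.19. DGKA, a diacylglycerol kinase, was 2.82-fold higher, the adenylyl cyclase ADCY1 2.34-fold and the IP3 receptor ITPR1 2.04-fold. DGKH, another diacylglycerol kinase, differed by -2.58, PKIB by -2.22 and PLCB1 by -1.71.

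Between siControl and untransfected LTAD, 4 of the 82 were at least 2-fold lower and 6 higher, 4.88% and 7.32% beside 4.36% and 6.34% of all kept genes. For 6 of these 10 the lower level was under 7.23. PLCB1 read under the filter value in both arrays, at 7.22 in siControl and 6.21 in untransfected LTAD, and was kept only through LNCaP. PRKD3 was kept only through siControl, at 7.24, and ANXA1 only through untransfected LTAD. Nothing is read from these shares either. ANXA1 differed by -3.46, DGKA was 2.96-fold lower, and PDE10A and the cytoskeletal PKC substrate ADD3 were each 2.40-fold lower. GNAL, a stimulatory alpha subunit, differed by 2.79, DGKH by 1.98, the phosphodiesterase PDE3B by 1.45, PRKD3 by 1.16 and PLCB1 by 1.01, and the polarity protein PARD6A, a partner of atypical PKC, was 2.18-fold higher. On the deposited values, of these 6 only GNAL was still 2-fold higher, at 1.66, and PRKD3 and PLCB1 were lower in siControl, at -0.05 and -0.19. DGKA and DGKH read 7.89 and 8.29 in siControl and 7.96 and 8.89 in LNCaP, so that untransfected LTAD stood apart from both, at 9.45 and 6.31. ANXA1 read 5.88 in LNCaP, 10.52 in untransfected LTAD, 7.06 in siControl and 6.06 in siPSF.

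Genes with the pattern most like 3 of the members were found by the Euclidean distance between 4-array profiles, each centred on its own mean, over 9967 other kept genes. With 4 arrays this is a description. PRKCA and GNAQ were both chosen from siPSF against siControl in these same arrays. Their likeness to each other therefore follows in part from that choice, and nothing is read from it. Nearest to PRKCA were SUPT3H (0.22), UBE2E2 (0.34) and GNAQ itself (0.35). SUPT3H spans 569 kb and UBE2E2 389 kb. Nearest to GNAQ were UBE2E2 (0.22), NFIA (0.24, spanning 386 kb) and CPE (0.25, spanning 120 kb), with PRKCA the 7th. UBE2E2 read 9.76 in LNCaP, 10.44 in untransfected LTAD, 10.00 in siControl and 8.78 in siPSF. Nearest to PKIA were ANXA1 (0.48), SLC39A2 (0.65) and HTR7 (0.66), each high only in untransfected LTAD.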

How the data were processed

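Each of the 4 groups had 1 array. The deposited values are log2 levels per probe set, which the authors obtained by RMA, run in Affymetrix Expression Console according to the submitters' processing notes. The sources used here do not give versions, settings, scan batches or detection calls. Names came from the platform annotation, with symbols updated by Entrez ID through the RefSeq table of GRCh38.p14 (19429 IDs matched). Of the probe sets, 19460 had 1 symbol, 1754 had several and named no gene, and 12083 were unnamed here. The arrays were quantile normalized (numpy 2.4.6, pandas 2.3.3), and a gene was read by its probe set with the highest mean over the arrays. Differences are between single arrays, with no test. The steps were tested on simulated data, copies of the siControl array with small noise and planted differences larger than 2-fold. That checks the calculation only, and says nothing on how far real arrays differ. Members and lists were chosen with earlier results of these data known. Some listed genes are not reported here. Named were the members, SFPQ, up to 2 kept genes of each pathway list in each direction at 2-fold or more, and the 3 nearest profiles of PRKCA, GNAQ and PKIA. Small RNA and olfactory receptor genes were left out of the profiles. Alternatives were the deposited values, median centring, the mean over probe sets, no filter, a filter at the 75th percentile, a 1.5-fold threshold and the other LTAD array.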

Additional observations from a re-analysis of the deposited data

How the results depend on the processing

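No paired analysis was possible because each group held 1 array. The filters cannot change a member's difference, and the mean over probe sets only those of GNAQ and GNA11. Of 89 member differences under alternatives that could change them, 69 kept their sign and their side of 2-fold, and none of the 2-fold differences changed sign. For siPSF against siControl, the 2 members at least 2-fold lower became 1 with the 75th percentile filter, which left PRKCA out, and 4 with a 1.5-fold threshold or with untransfected LTAD as the control. The 2 other pathway genes lower became 5 with median centring, 1 with the stricter filter, 6 at 1.5-fold and 8 against untransfected LTAD, where 3 were higher. The 82 kept genes apart became 42, 408 and 1072 under the last 3 of these. The second probe set of GNAQ, an alternative chosen after seeing the data, gave -0.85.

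For untransfected LTAD against LNCaP, the counts with the stricter filter were 1 lower and 3 higher among other pathway genes and 305 kept genes apart, against 3, 6 and 570. At 1.5-fold they were 8 lower other pathway genes, 2 members lower, 2 members higher and 1587 kept genes. With the siControl array standing for LTAD, 1 member was lower and 0 higher, and 3 other pathway genes were higher.

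For siControl against untransfected LTAD, the deposited values gave 6 members lower, 42 other pathway genes lower and 1 higher, and 4856 kept genes apart, against 2, 4, 6 and 1082. The stricter filter gave 2 other pathway genes higher and 602 kept genes, and 1.5-fold gave 12 lower, 14 higher and 2871. The filters change which genes are counted, the threshold how many pass, and the deposited columns lie on different scales. With single arrays and no detection calls, differences that involve levels under 7.23 are the least certain, those of PKIA, PRKCE and PRKCA in siPSF among them.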
